A study of Mus musculus with 3 samples.

Results

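The serotonin receptor genes were examined in ribosome-bound RNA from the mouse dentate gyrus. The set was a fixed list of 10 genes, Htr1a, Htr1b, Htr2a, Htr2c, Htr3a, Htr4, Htr5a, Htr5b, Htr6 and Htr7, and all 10 had a row among the 32531 genes counted. The material came from 1 group of 3 libraries, replicates 1 to 3, of untreated adult C57BL/6J mice of the Penk-TRAP line NIDA186. These mice carry Rpl10a, a large-subunit ribosomal protein, joined to the fluorescent protein EGFP, in a transgene named for Penk, the proenkephalin gene. Ribosomes with the tag were captured from dissected dentate gyrus through EGFP (translating ribosome affinity purification, TRAP), and the RNA they held was counted per gene. Input, unbound or whole-tissue RNA was not analysed here, so a receptor's level describes the captured RNA and not its enrichment over tissue. Fewer cells that make a receptor and less of its RNA per cell cannot be told apart. Nothing in the labels says whether each replicate was 1 animal, a pool of animals or a repeat of 1 preparation, so the spread between replicates may be technical.

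Serotonin reaches the hippocampus in axons from the raphe nuclei of the brainstem and acts there through a large receptor family. Most members are G protein-coupled receptors: the 1 and 5 families act mainly through Gi/o proteins, which lower cAMP and open GIRK potassium channels, the 2 family through Gq and phospholipase C, and the 4, 6 and 7 receptors through Gs, which raises cAMP. The 3 family differs in kind, being a cation channel opened by serotonin itself. In the dentate gyrus, serotonin receptors are known for their part in granule cell excitability, in adult neurogenesis and in responses to antidepressant drugs.

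Gene totals were 5348761, 19195559 and 11059982 counts in replicates 1 to 3, so replicate 1 was the shallowest. A gene at 0 counts could still have been present at up to 3 counts, which is 0.707, 0.131 and 0.257 CPM in that order (CPM, counts divided by the library's gene total after TMM scaling, times 1000000). This limit and the intervals given here cover counting error only, since copies made by PCR are not independent molecules. Levels of different receptors were compared as CPM per kb of exon, because longer transcripts collect more reads. Prox1, the transcription factor that marks dentate granule cells, stood at 658, 474 and 261 CPM in replicates 1 to 3. This marker of the labelled tissue was thus present in every library. Of the 10 granule cell markers read, 7, 10 and 9 had at least 10 counts in replicates 1 to 3. In replicate 1 C1ql3 had 0 counts, Tdo2 1 and Calb1 2, and in replicate 3 Plk5 had 3. Replicate 1 stood apart by depth, and 16.3% of its reads lay on genes, against 38.2 and 21.1% in replicates 2 and 3. At the depth of replicate 1, the level in replicate 2 would have given 307 counts of C1ql3, where 0 were found. For Maoa, a monoamine oxidase gene, it would have given 134 counts, and again 0 were found. The reason for such gaps was not tested.

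Of the 10 receptor genes, 4 had at least 10 counts in every library: Htr1a, Htr5a, Htr2a and Htr4. Over all genes the share was 24.3%. Htr2c was counted in every library but with only 6 counts in replicate 1. The other 5 members, Htr5b, Htr3a, Htr6, Htr1b and Htr7, were at 0 in at least 1 library, but 0 of 10 were at 0 in every library, as 45.7% of all genes were. Of these, Htr1b, Htr6 and Htr7 stayed under 10 counts in every library and under 10 over all 3 libraries together. At 0 counts were 5 members in replicate 1, 1 in replicate 2 and 3 in replicate 3, an order that matches that of depth. The order was the same over all genes: 11913, 16578 and 14319 of 32531 had at least 1 count in replicates 1 to 3. The number with at least 10 counts in every library was 5 without replicate 1, since Htr2c then joined, and 4 without replicate 2 or without replicate 3.

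**Figure D1:**
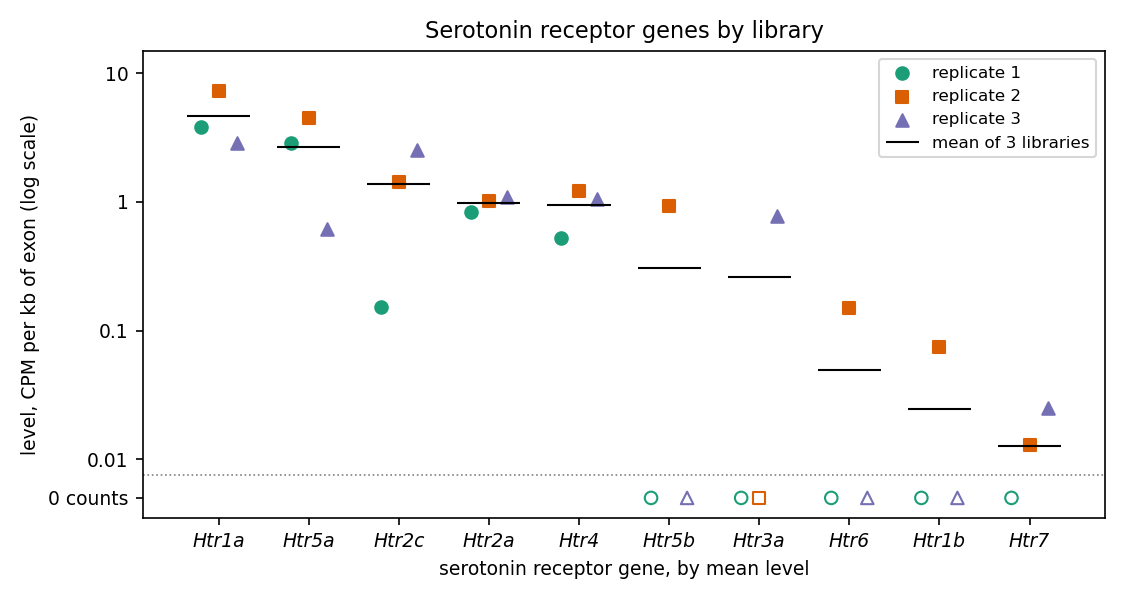
Level of each serotonin receptor gene in CPM per kb of exon (log scale) for replicates 1 to 3; bars are means over the 3 libraries, and open symbols under the dotted line are 0 counts. Per kb of exon Htr1a is the highest member in every library, and 5 members are at 0 in at least 1 library. In CPM without length correction, Htr2c exceeds Htr1a in replicate 3.

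Among the Gi/o-coupled members, Htr1a encodes the 1A receptor, which hyperpolarises hippocampal principal cells and also serves as the autoreceptor of raphe neurons. It had 73, 756 and 151 counts in replicates 1 to 3, or 17.2, 33.0 and 12.9 CPM. Per kb of exon these were levels of 3.84, 7.36 and 2.88 CPM, a mean of 4.69 ± 2.36 (SD, n = 3), with replicate 2 the highest and replicates 1 and 3 close to each other. Among genes with at least 1 count, these levels per kb stood at percentiles 53.4, 72.7 and 49.0, near the middle of the genes detected in replicates 1 and 3 and above it in replicate 2. Htr1a lies on chromosome 13 from 105443639 to 105448122, plus strand (GRCm38), and GENCODE gives it a single exon, so its reads cannot show whether they came from spliced RNA.

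Htr5a, which encodes the 5A receptor, had 66, 557 and 39 counts, or 15.6, 24.3 and 3.34 CPM in replicates 1 to 3. Replicate 3 was the low library: its 95% exact Poisson interval of 2.37 to 4.56 CPM lay apart from 12.03 to 19.8 CPM in replicate 1 and from 22.3 to 26.4 CPM in replicate 2. The highest level was 7.29 times the lowest. Per kb of exon the gene stood at 2.89, 4.52 and 0.621 CPM, a mean of 2.68 ± 1.96 (SD, n = 3). Htr5a lies on chromosome 5 from 27842149 to 27855088, plus strand, in 2 exons.

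Htr5b, the closest relative of Htr5a, was counted in replicate 2 alone, with 41 counts (1.79 CPM) against 0 in replicates 1 and 3. At the depth of replicate 3, the level in replicate 2 would have given 20.9 counts, and at that of replicate 1 it would have given 7.59. The level in replicate 2 was at least 6.97-fold higher than in replicate 3 and at least 2.53-fold higher than in replicate 1, each against 3 counts per library and with the counting error of the 41 counts left aside. Neither Htr5a nor Htr5b shared a stretch of 50 bases with a transcript of another gene, so exact repeats of that length did not link their counts. Htr1b, the receptor of serotonin and other axon terminals, had 0, 8 and 0 counts. Its 0.349 CPM in replicate 2 had an interval from 0.151 to 0.688 CPM, which spans the limit of 0.257 CPM in replicate 3, so a difference between these libraries was not detectable at this depth. The exons of Htr1b overlap those of D430036J16Rik on the opposite strand, and 17.1% of its 50-base stretches also occur in other transcripts, D430036J16Rik included. D430036J16Rik had 0, 74 and 1 counts, and since no source used here states the strand setting, the few Htr1b reads are uncertain.

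Of the Gq-coupled members, Htr2c spread more widely between libraries than Htr2a. As given below, 98.0% of all genes tested varied beyond sampling noise, and Htr2a did too with total counts in place of TMM scaling. Htr2a encodes the 2A receptor, the target of classic psychedelic drugs, and had 20, 131 and 71 counts, or 4.71, 5.72 and 6.08 CPM. All 3 Poisson intervals overlapped (2.88 to 7.28, 4.78 to 6.79 and 4.74 to 7.66 CPM), and the highest level was 1.29 times the lowest. Per kb of exon it stood at 0.841, 1.02 and 1.08 CPM, a mean of 0.982 ± 0.126 (SD, n = 3).

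Htr2c, an X-linked gene whose RNA is edited and alternatively spliced, had 6, 304 and 277 counts, or 1.41, 13.3 and 23.7 CPM. The libraries did not overlap: the intervals ran from 0.519 to 3.08 CPM in replicate 1, from 11.8 to 14.9 in replicate 2 and from 21.0 to 26.7 in replicate 3. The level in replicate 3 would have given 100.5 counts at the depth of replicate 1, where 6 were found. Per kb of exon the levels were 0.152, 1.42 and 2.54 CPM, a mean of 1.37 ± 1.20 (SD, n = 3). This gene (chromosome X, 146962513 to 147197277, plus strand) has 7 transcripts in GENCODE, whose exons together cover 9.33 kb, whereas its longest transcript holds 4883 bases. Divided by that transcript, the mean level was 2.62 CPM per kb, so the place of Htr2c among the receptors depends on which transcripts the reads came from. The gene's introns hold small RNA genes, among them Mir448 and Snora35, none of which overlapped its exons.

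Because Htr2c is very abundant in the choroid plexus, markers of that tissue were read beside it. Ttr, the transthyretin gene and the leading choroid plexus transcript, had 0, 477 and 0 counts. The 7 choroid plexus markers summed to 15.3, 65.3 and 13.2 CPM in replicates 1 to 3, with 5 of 7 at 0 in replicate 1, 0 of 7 in replicate 2 and 5 of 7 in replicate 3. Folr1, Aqp1 and Otx2 had at most 3 counts in any library, and Kcnj13 was the highest member per kb, at 8.96, 9.56 and 9.58 CPM. Htr2c was highest in replicate 3, where Ttr was at 0, Kl at 3.59 CPM and Kcnj13 at 9.58 CPM. The part of choroid plexus RNA in the level of Htr2c was not tested.

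The Gs-coupled members were led by Htr4, which encodes the 4 receptor, a receptor of granule cells studied in antidepressant action. It had 11, 138 and 61 counts, or 2.59, 6.02 and 5.22 CPM. Replicate 1 was the lowest, and its interval of 1.30 to 4.64 CPM overlapped that of replicate 3 (3.99 to 6.70 CPM) but not that of replicate 2 (5.06 to 7.12 CPM). Per kb of exon Htr4 stood at 0.528, 1.23 and 1.06 CPM, a mean of 0.940 ± 0.366 (SD, n = 3). Htr6, whose receptor is concentrated in primary cilia, had 0, 8 and 0 counts, and Htr7, a receptor that also contributes to circadian phase control, had 0, 1 and 1. For Htr7 the upper bounds of the Poisson intervals were 0.243 and 0.477 CPM in replicates 2 and 3, and the limit of 3 counts was 0.707 CPM in replicate 1. S100a10, the calcium-binding protein p11 that carries the 1B and 4 receptors to the cell surface, had 1, 47 and 1 counts. It was thus near 0 in replicates 1 and 3, the libraries in which Htr1b was at 0 and Htr4 was not.

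Htr3a, the subunit without which the serotonin-gated channel does not form, had 0, 0 and 19 counts. In replicate 3 it reached 1.63 CPM, at least 12.4-fold higher than in replicate 2 and at least 2.30-fold higher than in replicate 1, each against 3 counts per library and with the counting error of the 19 counts left aside. The level of replicate 3 would have given 37.2 counts in replicate 2. Its partner subunit gene Htr3b was at 0 in all 3 libraries. In cortex and hippocampus Htr3a marks interneurons that arise in the caudal ganglionic eminence (CGE). Markers of these cells summed to 253, 376 and 532 CPM in replicates 1 to 3, with 3, 0 and 2 of 10 at 0. Cck, a neuropeptide gene also found in principal cells, stood at 75.2, 185 and 215 CPM. Cnr1, the cannabinoid receptor gene, stood at 30.6, 58.9 and 151 CPM. Vip had 0, 16 and 14 counts. Of the 10 markers, 5 were highest in replicate 3, where Htr3a was found, 3 in replicate 2 and 2 in replicate 1. Reln, at 16.7, 56.0 and 129 CPM, followed the sum, whereas Adarb2, at 109, 32.4 and 11.6 CPM, and Lamp5, at 1.42, 23.6 and 6.16 CPM, did not. The part of these cells in the level of Htr3a was not tested.

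Ordered by mean level per kb of exon, the members ran Htr1a, Htr5a, Htr2c, Htr2a, Htr4, Htr5b, Htr3a, Htr6, Htr1b and Htr7. In each of the 9 neighbouring pairs the values of the 3 libraries overlapped, so no step from a gene to the next exceeded the spread between libraries. Over all 45 pairs, 19 did not overlap with counts of 0 set to the limit of 3 counts. These included Htr1a against each of Htr2c, Htr2a and Htr4, and each of Htr1a, Htr5a, Htr2a and Htr4 against each of Htr6, Htr1b and Htr7. Htr2c overlapped with Htr6 and with Htr7 at that limit. Htr1a was above Htr5a in 3 of 3 libraries, by 1.33, 1.63 and 4.64 times. It was above Htr2c by 25.3, 5.17 and 1.13 times, so in replicate 3 these levels were nearly equal. In CPM without length correction, replicate 3 had Htr2c at 23.7 and Htr1a at 12.9. The order of Htr1a and Htr2c there, and their lack of overlap, thus depended on the length used. Htr2a and Htr4 could not be ordered: Htr2a was higher per kb in 2 of 3 libraries, with ratios of 1.59, 0.831 and 1.02.

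**Figure D2:**
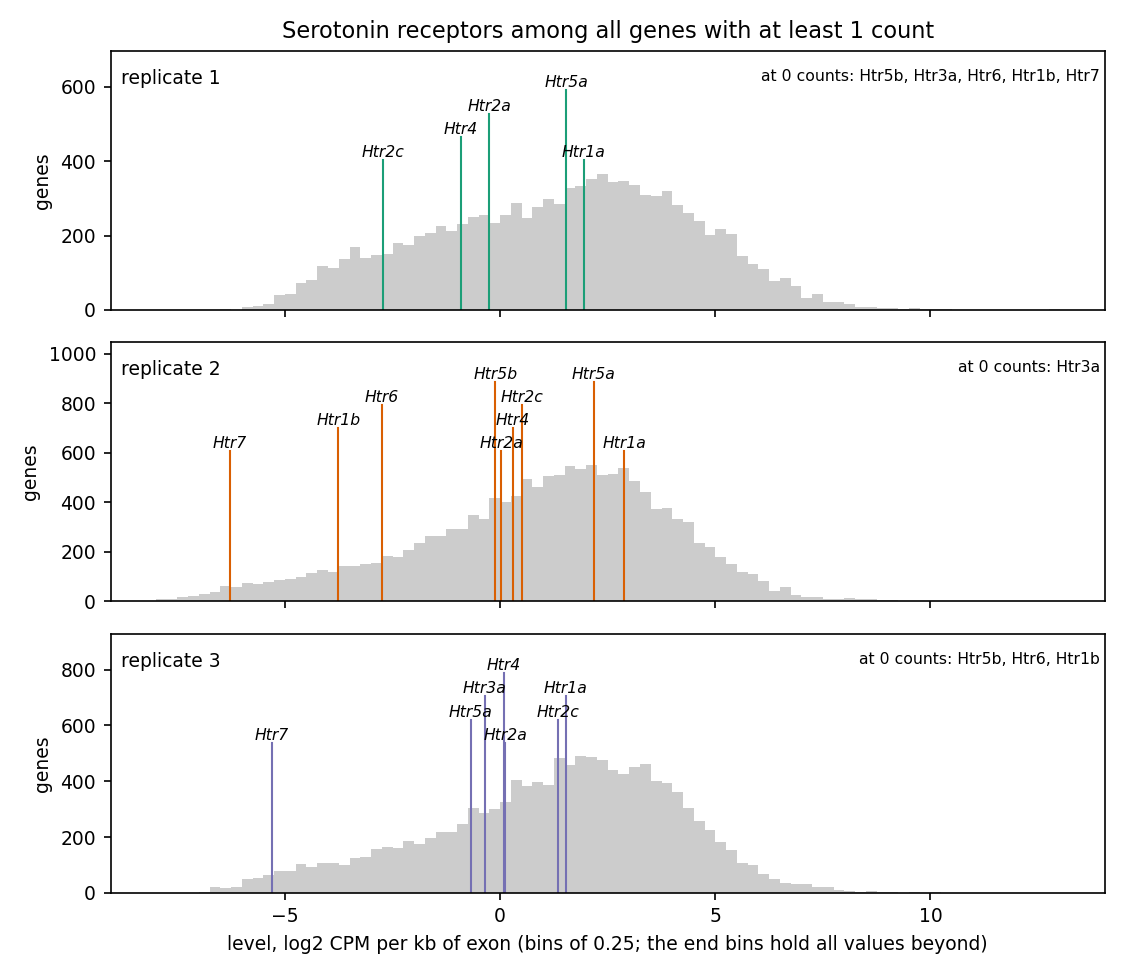
Number of genes (vertical axis) by level in log2 CPM per kb of exon (horizontal axis), for genes with at least 1 count, in 1 panel per replicate; coloured lines are the serotonin receptors, and those at 0 are named at the right. Among the genes detected, Htr1a stands at percentiles 53.4, 72.7 and 49.0, with the other receptors below it on this scale.

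Summed over the 10 genes, serotonin receptor RNA came to 8.25, 16.7 and 8.99 CPM per kb in replicates 1 to 3, from 176, 1944 and 619 counts. The make-up of this sum differed between libraries. Gi/o-coupled members held 81.6, 77.1 and 38.9% of it, a mean of 65.9 ± 23.4 (SD, n = 3). Gq-coupled members held 12.03, 14.6 and 40.3%, Gs-coupled members 6.40, 8.31 and 12.1%, and the channel gene 0, 0 and 8.68%. In replicates 1 and 2 Gi/o-coupled receptors thus made up most of the signal. In replicate 3 the Gi/o and Gq shares per kb were within a few percent of each other. Of the 619 counts there, not corrected for length, Htr2c held 277 and Htr2a 71, against 151 for Htr1a and 39 for Htr5a. Gq-coupled members thus led Gi/o-coupled members in replicate 3 without length correction. The difference between libraries came mainly from Htr5a, whose share was 35.1, 27.1 and 6.90%, and Htr2c, whose share was 1.84, 8.51 and 28.3%. Htr1a varied less, at 46.5, 44.0 and 32.0%. Without replicate 3 the mean Gq share was 13.3%, against 22.3% with all 3 libraries, and the channel share was 0%. On counts not corrected for length the Gq share was 31.1% and the channel share 1.02%, against a channel share of 2.89% per kb.

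**Figure D3:**
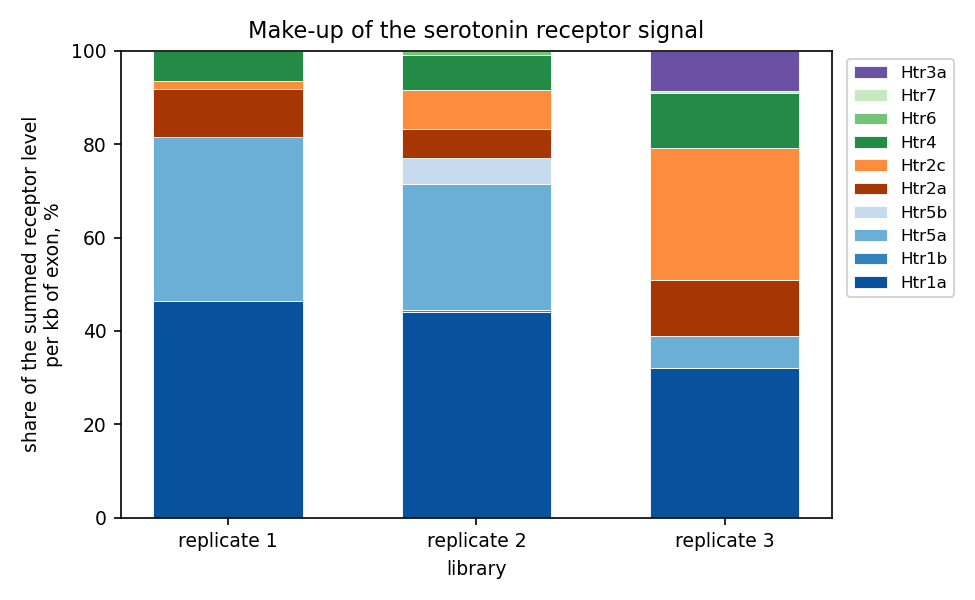
Share of each gene in the summed serotonin receptor level per kb of exon (vertical axis, %) in replicates 1 to 3; blue shades are Gi/o-coupled, orange and brown Gq-coupled, green Gs-coupled members, and purple is the channel gene Htr3a. The blue part holds 81.6 and 77.1% in replicates 1 and 2 and 38.9% in replicate 3, where Htr2c holds 28.3%.

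The balance between Htr5a and Htr2c does not depend on library scaling, since both counts come from the same library. Htr5a made up 91.7% of their joint counts in replicate 1 (66 of 72, 95% exact Clopper-Pearson interval 82.7 to 96.9%). In replicate 2 the share was 64.7% (557 of 861, 61.4 to 67.9%), and in replicate 3 it was 12.3% (39 of 316, 8.93 to 16.5%). The intervals did not overlap, so libraries labelled as replicates differed in this ratio beyond counting error. No share over other gene pairs was computed as a background. Tested gene by gene, 98.0% of 13173 genes varied between libraries beyond counting error. The difference in this ratio thus cannot be read as particular to these receptors. The share of Htr1a in its joint counts with Htr5a was 52.5% in replicate 1 (43.9 to 61.0%) and 57.6% in replicate 2 (54.9 to 60.3%), intervals that overlap. In replicate 3 it was 79.5% (73.0 to 85.0%), above both. For Htr2a against Htr4 the shares were 64.5, 48.7 and 53.8%, with intervals that overlapped in all 3 libraries (45.4 to 80.8, 42.6 to 54.8 and 44.9 to 62.5%).

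Variation between libraries was tested for every gene whose total gave at least 5 expected counts in each library, by a Poisson chi-square test against the scaled library sizes with Benjamini-Hochberg adjustment. Of the 5 receptors that could be tested, 4 varied beyond sampling noise (adjusted p under 0.05). Over all 13173 genes tested the share was 98.0%, so variation of this kind was general in these libraries and not a result about the receptors. The adjusted p of the chi-square test was 5.9e-30 for Htr1a, 7.0e-44 for Htr5a, 2.0e-25 for Htr2c and 0.0198 for Htr4. The call of Htr1a rested on replicate 2, without which its adjusted p was 0.0852 (background 89.4%), and the call of Htr4 rested on replicate 1, without which it was 0.340 (background 86.8%). Without replicate 3 the background was 89.7%. Htr2a missed the threshold (adjusted p = 0.606), but with total counts in place of TMM scaling it passed (adjusted p = 0.0400).

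Levels were then set against the median tested gene of each library with limma (TREAT, log2 threshold 1, Benjamini-Hochberg adjustment over 8510 genes that passed the filter on low counts). The filter kept 5 of the 10 receptors, namely Htr1a, Htr5a, Htr2a, Htr2c and Htr4, and 26.2% of all genes. On the log2 CPM scale their mean differences from the median gene were -0.64 for Htr1a (SE 0.79, adjusted p = 0.916), -1.47 for Htr5a (SE 0.88, adjusted p = 0.588) and -1.94 for Htr2c (SE 0.89, adjusted p = 0.380). They were -2.44 for Htr2a (SE 0.79, adjusted p = 0.151) and -2.76 for Htr4 (SE 0.76, adjusted p = 0.0695). Each of these differences was negative, but limma called 0 of the 5 above and 0 below the median gene, where the background was 14.1% above and 5.22% below. Genes said here to lie above or below the median gene are those called by this test. At an unadjusted p under 0.05, 0 lay above and 2 below, and with DESeq2 size factors the adjusted counts were again 0 and 0. Without replicate 2, Htr4 lay below the median gene (-3.02, adjusted p = 0.0328, limma), against a background of 5.26%. The difference for Htr1a was 0.06 without replicate 1, a setting in which 11367 genes passed the filter and the median gene was thus another. Per kb of exon 0 of 5 lay above or below, against 9.76 and 3.74% of all genes. With no filter on low counts 5 of 10 lay above, against 27.2% of all genes, since the median gene is then itself near 0.

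The other genes of the serotonin system were read from fixed lists. Of the 4 remaining serotonin receptor genes, 0 passed the filter on low counts. Htr1d, whose receptor resembles the 1B receptor, had 0, 58 and 0 counts, Htr1f had 11, 12 and 26, Htr2b had 0, 4 and 0, and Htr3b had 0 in each library. Of 7 marker genes of serotonin neurons, 5 were at 0 in every library. Tph2, the enzyme that starts serotonin synthesis in neurons, and Slc6a4, the serotonin transporter, were at 0 counts in all 3 libraries, as were Fev, Gata3 and Lmx1b. In the library with the greatest depth, a count of 0 allows up to 0.131 CPM. Slc18a2, which loads monoamines into vesicles, was present at 21.4, 10.1 and 18.4 CPM, and Gata2 at 0, 13.1 and 7.19 CPM. Among 9 genes of synthesis, storage, transport and breakdown, 3 were tested and 0 were called above or below the median gene by limma. The number was also 0 at an unadjusted p under 0.05, and 0 with DESeq2 size factors. The highest mean per kb was that of Aldh2, an aldehyde dehydrogenase, at 14.1, 0.588 and 0.167 CPM per kb, and it rested on replicate 1. In replicate 2 Maoa was higher, at 7.56 CPM per kb, and in replicate 3 Maob, at 5.58. Without replicate 1, 1 of 4 tested lay below the median gene, against 8.01% of all genes.

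The Gs, Gi/o and Gq lists of signalling genes behind the receptors had medians per kb of exon above the level of Htr1a, although single members lay below it. The median gene of the Gs and cAMP list had 19.3, 22.2 and 16.6 CPM per kb in replicates 1 to 3, that of the Gi/o list 19.7, 26.9 and 23.5, and that of the Gq list 11.9, 13.5 and 29.9, where Htr1a had 3.84, 7.36 and 2.88. Of the Gs and cAMP genes, 8 of 15 tested lay above the median gene and 0 below (limma, adjusted p under 0.05; 14.1 and 5.22% of all genes), or 5 of 15 above without replicate 2. Adcy1, a calcium-stimulated adenylyl cyclase and the highest of them per kb, stood at 2196, 874 and 937 CPM. Gi/o proteins, GIRK channels and their regulators had 6 of 9 above and 1 below. Without replicate 2 they had 3 of 8 above, and without any single replicate 0 below. Gnao1, the Go alpha subunit, had 130, 112 and 120 CPM per kb and Gnai1, a Gi alpha subunit, 18.4, 162 and 173, so Gnao1 had the higher mean only with replicate 1. The GIRK genes Kcnj3 and Kcnj6, whose channels the 1A receptor opens, lay at 149, 226 and 122 CPM and at 181, 205 and 227 CPM. Kcnj9, another GIRK gene, stood at 0.707, 13.2 and 9.75 CPM and did not pass the filter. Of the Gq list 6 of 8 lay above and 0 below, led by Prkcb, a protein kinase C gene, at 4201, 2188 and 2855 CPM. Receptor partner genes had 2 of 9 above, a count of 5 of 10 without replicate 1 and of 0 of 9 without replicate 2 or without replicate 3. Corrected for exon length, 0 of 8 tested lay above. Their highest member per kb was Snx27, an endosomal sorting protein, at 133, 140 and 158 CPM. The share above the median gene over all genes was 19.1% without replicate 1, 11.4% without replicate 2 and 11.4% without replicate 3, and the share below was 8.01, 5.26 and 3.95%.

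In the other aminergic and in the cholinergic receptor families the median gene likewise stayed under 1 CPM per kb. Of 13 muscarinic and nicotinic receptor genes, 4 had at least 10 counts in every library and 2 were at 0 in all of them. Of 14 dopamine and adrenergic receptor genes the numbers were 4 and 4, whereas of the 10 serotonin receptors they were 4 and 0. The median member stood at 0.0758, 0.973 and 0.701 CPM per kb for serotonin receptors in replicates 1 to 3. It stood at 0.0939, 0.655 and 0.766 for the cholinergic genes and at 0, 0.506 and 0.0842 for the dopamine and adrenergic genes. Summed levels were 41.5, 84.9 and 53.0 CPM for serotonin, 136, 148 and 166 CPM for cholinergic, and 54.5, 80.9 and 32.3 CPM for dopamine and adrenergic receptors. Chrm1, the M1 muscarinic receptor gene, had a higher mean level than any of the 10 serotonin receptors, at 11.7 CPM per kb. Adra1d was the highest adrenergic gene, at 8.60 CPM per kb. These figures describe the lists, and no difference between the families was tested.

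Markers of the cell types that the dissection could hold were read beside the receptors. Granule cell markers summed to 1978, 2315 and 1211 CPM in replicates 1 to 3, with the lowest sum in replicate 3, in which Htr5a was low. Of the 10 members, 6 were lowest in replicate 3 and 4 in replicate 1. Those lowest in replicate 1 were Calb1, C1ql3, Dsp and Tdo2, with 2, 0, 115 and 1 counts there. CA1 pyramidal markers summed to 62.7, 118 and 198 CPM and CA3 markers to 236, 650 and 770 CPM. In these sums replicate 1 was the lowest and replicate 3 the highest, the order also seen for Htr2c. Highest in replicate 3 were 4 of 5 CA1 and 3 of 5 CA3 members, and lowest in replicate 1 were 4 and 3. Pou3f1 of the CA1 list, at 5.42, 7.51 and 2.14 CPM, and Iyd of the CA3 list, at 2.83, 1.66 and 0 CPM, were lowest in replicate 3. The leading genes were Stxbp6 for granule cells, Wfs1 for CA1 and Dkk3 for CA3. Interneuron markers of the medial ganglionic eminence (MGE), led by Sst, summed to 164, 247 and 319 CPM, a sum again in that order. Of the 6 members, 4 were highest in replicate 3 and 3 were lowest in replicate 1. Sst was highest in replicate 2, at 73.8, 125 and 83.3 CPM, and Lhx6 fell, at 22.4, 9.91 and 6.16 CPM. Mossy cell markers, led by Ajap1, summed to 44.6, 48.1 and 21.2 CPM, with Csf2rb2 and Gal at 0 in all libraries. Astrocyte markers, led by Slc1a2, summed to 3025, 1341 and 3114 CPM, of which Slc1a2 alone held 2874, 1228 and 2796 CPM. Of the 6 members, 4 were lowest in replicate 2 and 2 in replicate 1. The 2 lowest in replicate 1 were Aqp4, at 24.8, 61.3 and 96.0 CPM, and Gja1, at 0, 12.9 and 11.0 CPM. Microglial markers, led by P2ry12, summed to 3.30, 8.95 and 23.3 CPM, and C1qa was at 0 in each library. The 7 raphe markers summed to 21.4, 23.3 and 25.6 CPM, all of it Slc18a2 and Gata2. With 3 libraries of 1 group, the part of cell type make-up in the differences between receptors was not tested.

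**Figure D4:**
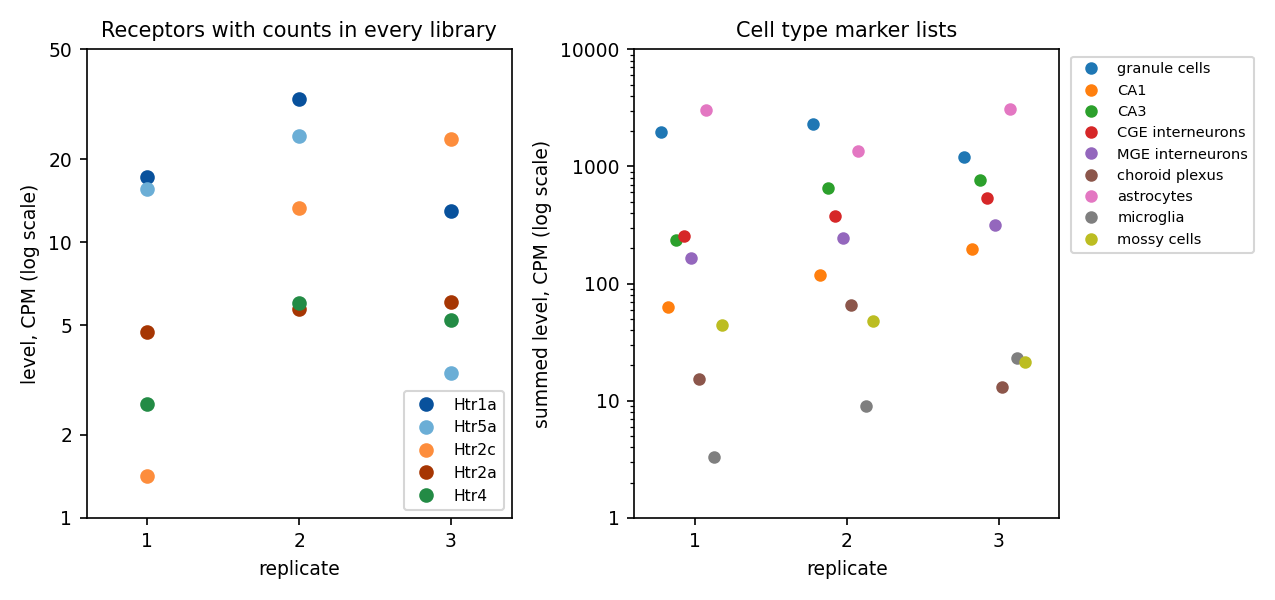
Left, level in CPM (log scale) of the 5 receptors counted in every library; right, summed level in CPM (log scale) of cell type marker lists; both by replicate, 1 point per gene or list and library. Htr5a is lowest in replicate 3 at 3.34 CPM, where granule cell markers sum to 1211 CPM. Mossy cell and choroid plexus sums are also lowest there. Htr2c is lowest in replicate 1 at 1.41 CPM, where CA1 markers sum to 62.7 CPM. The CA3, CGE, MGE and microglial sums are lowest there too. The part of any cell type in these receptor levels was not tested.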

How the data were processed

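Deposited per library were whole-number read counts per gene symbol, made by the authors with STAR 2.0.0e and HTSeq on mm10, per the submitters' processing notes. The annotation, strand setting and filters are not given in the sources used here, and the counts were not normalised. Summary rows and a row named unknown (0% of reads) were left out. From the counts, CPM with TMM scaling were computed in edgeR 4.0.16 (R 4.3.3). Exon lengths, coordinates and overlaps come from GENCODE vM21 (GRCm38), which may not be the annotation counted with; 93.1% of tested genes matched. The level test used limma 3.58.1 on log2 CPM (prior count 2) of genes kept by filterByExpr. Both tests were tested on simulated data. All members were named, and of every other list the highest gene per kb, genes at 0 and genes tied to a receptor. A gene this rule names, and its list, are not reported here. Members and lists were chosen with earlier results of these data known. Alternatives were DESeq2 1.42.0 size factors, other filters, a prior count of 0.5, other lengths and leaving out each replicate. Figures were drawn with matplotlib 3.10.9.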

Additional observations from a re-analysis of the deposited data

How the results depend on the processing

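The number of receptors called above the median gene was 0 in the main setting and under every alternative except no filter on low counts. There it was 5 of 10, since the median gene is then itself near 0 (background 27.2%), and the differences turned positive, at 6.87 for Htr1a, 6.04 for Htr5a, 5.07 for Htr2a, 5.57 for Htr2c and 4.75 for Htr4 on the log2 scale. The sign for Htr1a also turned at 0.29 with at least 10 counts asked of only 2 libraries and at 0.06 without replicate 1. It was -1.07 without replicate 2. The number called below ranged from 0 to 1 when each replicate was left out. The numbers of receptors varying between libraries, and of those with at least 10 counts in every library, stayed within 1.5 times their main value under the alternatives run. Shares of the coupling classes moved by less than the wide SD between libraries, but the channel share was 1.02% on counts not corrected for length, against 2.89%, and the Gq share was 13.3% without replicate 3, against 22.3%. No paired analysis was possible because all libraries belong to 1 group. Depth limits replicate 1 most: 3 counts there equal 0.707 CPM, more than Htr1b or Htr6 reached in any library.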

Other observations

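Some genes beyond the receptors differed between libraries labelled as replicates, and those named here were chosen after their values were seen. Maoa, the monoamine oxidase that prefers serotonin, had 0, 722 and 122 counts in replicates 1 to 3, or 0, 31.5 and 10.4 CPM. Its relative Maob, mostly a gene of glia and serotonin neurons, had 9, 190 and 182 counts, or 2.12, 8.29 and 15.6 CPM. Plcb4, a phospholipase C that acts downstream of Gq, had 2, 1185 and 1762 counts, whereas Plcb1, of the same family, held 439, 464 and 478 CPM. Among nicotinic receptor genes, Chrna4 had 2, 114 and 461 counts and Chrnb2, its usual partner, 301, 596 and 157. No comparison in the design bears on these values.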
